A study of Mus musculus with 16 samples.

Results

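The 35 genes described here encode the enzymes, regulators and carriers of cholesterol and fatty acid synthesis, and were taken by gene name from a table of read counts. All 35 were found among the 43346 gene rows, and all 35 were among the 23769 rows that passed a filter on low counts. They fall into 6 enzymes of the mevalonate steps, 11 enzymes from squalene to cholesterol, 6 genes of regulation and sterol transport, 4 of fatty acid synthesis, and 8 desaturases and elongases. RNA sequencing covered 16 spinal cord libraries from adult mice, female and 12 weeks old (strain C57BL7J, as the labels spell it), with 4 libraries in each of 4 groups. In the injured groups an 8 g Fejota clip had contused and compressed the cord at L1/L3, and tissue was taken on day 30 as consecutive pieces of 3 mm: the epicenter, the piece above it (rostral) and the piece below it (caudal). The uninjured cord was taken over the same 9 mm, T11 to S1, as 1 piece, so it holds in 1 sample the levels that are separate in the injured cord; these libraries carry the day 30 label too. The library names mark all 4 groups WT (wild type), and no transgene, mutation or drug is named for any group. The labels do not say whether libraries of a group came from separate animals, or which segments came from the same cord, so the spread behind each p-value is that between libraries and may be technical.

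Cholesterol is built from acetyl-CoA by way of mevalonate, isoprenoid diphosphates, squalene and lanosterol, and fatty acids are built from the same acetyl-CoA by carboxylation, chain building, elongation and desaturation. The membrane-bound factors SREBP-2 (gene Srebf2) and SREBP-1 (Srebf1) switch on the genes of both routes: SCAP carries them to the Golgi for cleavage when sterol is scarce, and INSIG proteins hold SCAP back when sterol is plentiful. In the central nervous system plasma cholesterol is largely kept out by the blood-brain barrier, most cholesterol lies in myelin, and oligodendrocytes and astrocytes make it locally.

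SREBP proteins bind sterol regulatory elements, often beside a CCAAT box that binds NF-Y, so the promoters of a few members are shown as reference sequence to let the letters be read beside the values that follow. They are RefSeq windows of 300 bases on GRCm38.p6, the assembly of mm10, from 250 bases before to 50 bases after a gene's start, printed 5′ to 3′ on the gene's strand. Capitals mark matches to the sterol element letters TCACNCNAC and to CCAAT on either strand (a match on the other strand to CCAAT reads ATTGG). Hmgcs1 (chr13:119690101-119690400, plus strand) is shown as an entry enzyme, Nsdhl (chrX:72918271-72918570, plus strand) as the other member with the sterol element letters, Insig1 (chr5:28071162-28071461, plus strand) as a member with a large fall, and Srebf1 (chr11:60222532-60222831, minus strand) as the regulator that rose. Srebf1 has 3 windows and the one shown is the most upstream. The other 2 hold no TCACNCNAC, but that at chr11:60210422-60210721 holds tcacccgag, which differs from it only in the last letter. Which start was in use in these libraries was not tested.
Hmgcs1: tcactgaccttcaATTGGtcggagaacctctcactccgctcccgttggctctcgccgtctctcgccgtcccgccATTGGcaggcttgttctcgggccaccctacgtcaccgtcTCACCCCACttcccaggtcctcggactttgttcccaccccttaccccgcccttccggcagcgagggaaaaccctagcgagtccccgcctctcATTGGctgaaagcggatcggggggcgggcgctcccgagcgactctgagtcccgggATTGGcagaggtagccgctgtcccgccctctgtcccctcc
Nsdhl: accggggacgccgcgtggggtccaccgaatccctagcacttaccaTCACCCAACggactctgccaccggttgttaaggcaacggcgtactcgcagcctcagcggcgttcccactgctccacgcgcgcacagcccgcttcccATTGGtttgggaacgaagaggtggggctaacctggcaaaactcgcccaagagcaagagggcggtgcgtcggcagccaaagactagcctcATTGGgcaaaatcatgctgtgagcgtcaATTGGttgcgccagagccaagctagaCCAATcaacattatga
Insig1: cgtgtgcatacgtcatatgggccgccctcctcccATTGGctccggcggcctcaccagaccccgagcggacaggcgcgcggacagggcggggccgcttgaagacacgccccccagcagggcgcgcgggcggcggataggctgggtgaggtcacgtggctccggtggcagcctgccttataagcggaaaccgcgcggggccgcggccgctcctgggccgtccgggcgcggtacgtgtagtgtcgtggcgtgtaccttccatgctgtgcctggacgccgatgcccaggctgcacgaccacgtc
Srebf1: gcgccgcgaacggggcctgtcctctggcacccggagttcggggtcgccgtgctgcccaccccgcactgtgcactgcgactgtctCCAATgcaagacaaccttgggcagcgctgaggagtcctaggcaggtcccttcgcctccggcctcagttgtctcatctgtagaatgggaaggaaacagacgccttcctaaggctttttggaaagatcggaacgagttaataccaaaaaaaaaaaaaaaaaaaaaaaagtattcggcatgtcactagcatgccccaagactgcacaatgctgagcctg
Windows were matched for 28 of the 35 members, in 37 windows; Fads1, Fdft1, Fdps, Scd1, Scd2, Sqle and Stard4 were not matched. TCACNCNAC stood in 2 members, Hmgcs1 (from position 114 of the window) and Nsdhl (from position 46), that is in 5.41% of the members' windows, against 2.70% of 32851 windows of all genes. CCAAT stood in 64.9% of the members' windows and 37.4% of all windows, and GGGCGG, the letters of a GC box that binds Sp1, in 75.7% and 35.7%. All motifs were searched on both strands, and matches of different motifs were counted even where they share bases. A match is only a match of letters, and a window without a match may still hold a site in other letters. None of these windows was assayed for binding.

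Library totals were 65.6 to 90.0 M counts (mega), so 3 counts, the most that a count of 0 allows, came to 0.0316 to 0.0485 CPM, far under every member's level; such floors cover counting error only. CPM values here are counts scaled to library size, with factors from the trimmed mean of M-values (TMM). The members together took 0.450 to 0.501% of all counts at the epicenter, 0.638 to 0.710% above, 0.512 to 0.597% below and 0.736 to 0.748% in uninjured cord. Among the libraries 2 stood apart on lists of cell type markers. Above 1 had 514 CPM over 7 Schwann cell genes and 323 CPM over 6 fibroblast genes, against 154 to 155 and 69.0 to 72.8 CPM in the other above libraries. Below 3 had 15689 CPM over 9 phagocyte genes and 1488 CPM over 10 neuron genes, against 1473 to 5081 and 4709 to 6456 CPM in the other below libraries. Values for both are included in all means unless stated.

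At the epicenter, 16 of the 17 sterol synthesis enzymes and all 4 fatty acid synthesis enzymes were lower than in uninjured cord. Of the 35 members, 29 fell and 2 rose against uninjured cord at an adjusted p under 0.05, where 29.3% of all tested genes fell and 31.9% rose. The members' median log2 fold change was -0.80, against 0.0032 over all genes. The 2 that rose were Srebf1 and Elovl1, and the 4 that were not called were Ebp, Scap, Elovl5 and Fads2. Without below 3, whose spread enters the same fit, 30 fell and 3 rose, Elovl5 (adjusted p = 0.0172) and Fads2 (adjusted p = 0.0123) being added. Every epicenter library was below every uninjured one for 30 members and above for 3, against 29.6% and 30.5% of all genes. Below the injury the counts were again 29 lower and 2 higher, where 15.7% of all genes fell and 23.6% rose, with a members' median of -0.72, against -0.0031 over all genes; without below 3, or without above 1, 28 were lower and 2 higher. Above the injury 4 members fell and 0 rose, where 0.446% of all genes fell and 3.09% rose; the members' median was -0.21 and 30 of 35 lay below zero. These 3 comparisons share the same uninjured libraries, so their likeness is not independent.

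**Figure D1:**
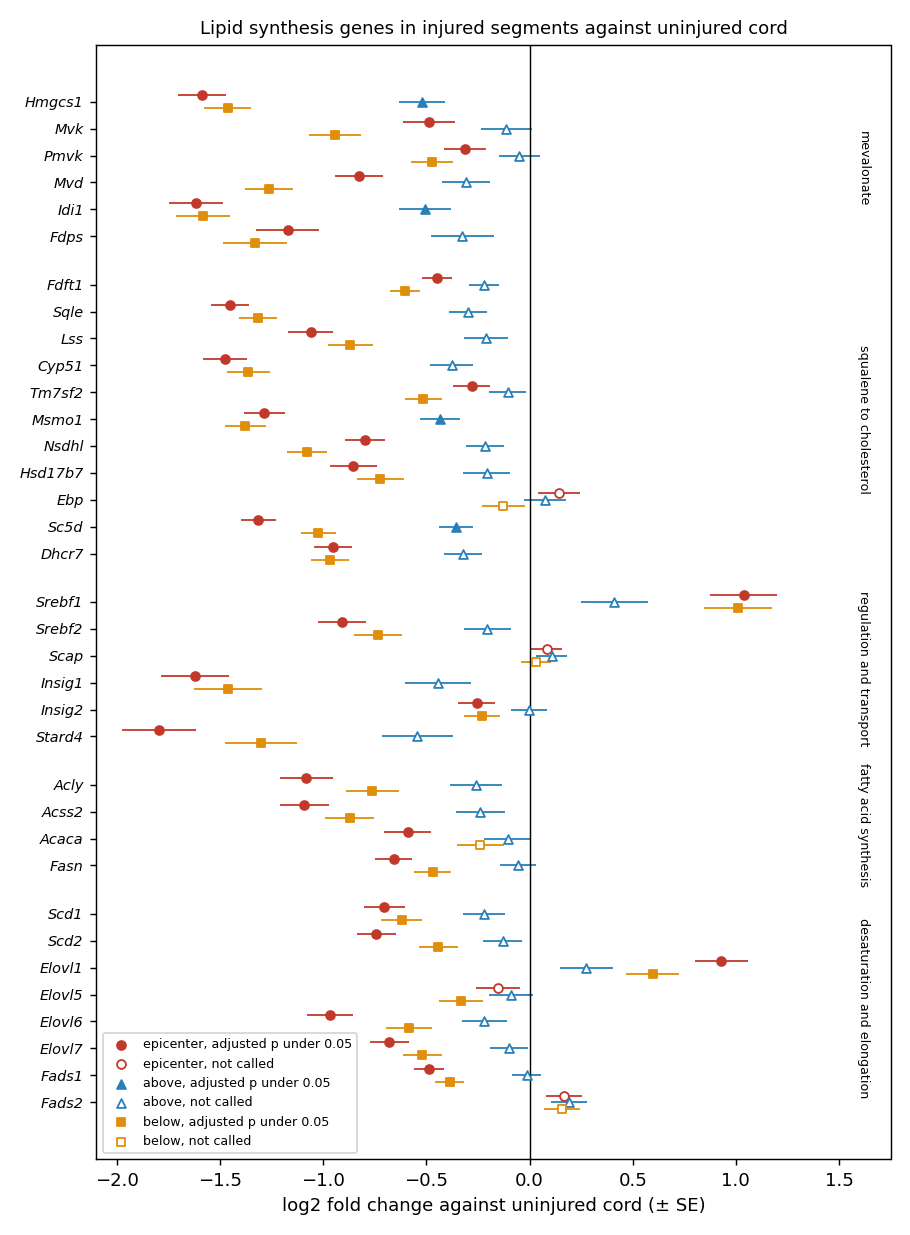
Log2 fold change ± SE of each of the 35 members against uninjured cord (x axis), for the epicenter, above and below groups of 4 libraries each, with genes ordered down the page by pathway step; filled symbols passed an adjusted p under 0.05 and open symbols did not. Most epicenter and below symbols lie left of zero, with Srebf1 and Elovl1 to the right, and the above symbols lie nearer to zero.

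All 6 mevalonate enzymes fell at the epicenter (median log2 fold change -0.999) and below (-1.30). Hmgcs1, the cytosolic enzyme that makes HMG-CoA, had 139, 123, 134 and 139 CPM at the epicenter, 255, 307, 286 and 270 CPM above, 145, 187, 127 and 123 CPM below, and 417, 410, 391 and 387 CPM in uninjured cord. Every injured library was below every uninjured library, and the above libraries lay between the others without overlap. Its log2 fold changes were -1.59 ± 0.12 at the epicenter (adjusted p = 2.41e-07), -0.52 ± 0.11 above (adjusted p = 0.0174) and -1.46 ± 0.12 below (adjusted p = 1.05e-06). Idi1, which isomerises isopentenyl diphosphate, had 25.9, 24.7, 22.8 and 26.9 CPM at the epicenter, 55.0, 60.9, 52.0 and 48.5 CPM above, 25.9, 33.6, 19.8 and 23.1 CPM below, and 80.3, 82.5, 73.9 and 70.8 CPM in uninjured cord. It showed the same order, with above libraries in the middle and no overlap with either side. Its log2 fold changes were -1.62 ± 0.13 at the epicenter, -0.51 ± 0.13 above (adjusted p = 0.0381) and -1.58 ± 0.13 below. The other mevalonate enzymes fell by less. At the epicenter they stood at -1.17 ± 0.15 for Fdps, which makes farnesyl diphosphate, -0.83 ± 0.12 for Mvd, the decarboxylase, -0.49 ± 0.13 for Mvk, mevalonate kinase, and -0.31 ± 0.10 for Pmvk, the next kinase. Below, Mvd stood at -1.26 ± 0.12, Mvk at -0.94 ± 0.13 and Pmvk at -0.47 ± 0.10. Reads of overlapping genes cannot be told apart, since the kit does not mark the strand. In the annotation GENCODE M21, 26.7% of the exonic bases of Fdps also belong to a same-strand gene model. Opposite-strand genes hold 12.1% of those of Hmgcs1 and 9.22% of those of Idi1. M21 gives 4208 exonic bases for Fdps and 4594 for Hmgcs1, against lengths of 1241 and 3233 in the authors' table. Whether the shared bases lie in the counted models was not tested.

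From squalene to cholesterol, 10 of 11 enzymes fell both at the epicenter (median -0.95 over the 11) and below (-0.97), Ebp being the exception. Sqle, squalene epoxidase, a rate-controlling step, had 33.7, 34.4, 31.3 and 35.8 CPM at the epicenter, 71.4, 77.3, 76.5 and 75.9 CPM above, 37.9, 45.7, 31.6 and 33.5 CPM below, and 94.4, 90.6, 92.5 and 92.7 CPM in uninjured cord. The 3 levels, with the epicenter and below low, did not overlap. Its log2 fold changes were -1.45 ± 0.09 at the epicenter (adjusted p = 1.23e-07), -0.30 ± 0.09 above (adjusted p = 0.102) and -1.32 ± 0.09 below (adjusted p = 6.68e-07). Msmo1, which oxidises the methyl groups of sterol intermediates, had 44.8, 41.6, 37.5 and 44.3 CPM at the epicenter, 79.7, 81.6, 74.3 and 68.1 CPM above, 38.5, 48.5, 34.9 and 35.8 CPM below, and 105, 105, 102 and 98.1 CPM in uninjured cord. Again the above libraries were intermediate, and they overlapped with no other group. Dhcr7, which makes the final reduction to cholesterol in one branch, had 27.4, 22.6, 21.3 and 22.1 CPM at the epicenter, 37.1, 36.1, 36.6 and 34.4 CPM above, 24.5, 24.4, 24.3 and 19.1 CPM below, and 42.7, 44.9, 48.8 and 44.3 CPM in uninjured cord. Its log2 fold change was -0.95 ± 0.09 at the epicenter (adjusted p = 1.16e-06) and -0.97 ± 0.09 below.

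Cyp51, the lanosterol demethylase, fell by 64.1% at the epicenter and fell by 61.1% below. Sc5d, a sterol desaturase, fell by 59.8% at the epicenter and fell by 50.8% below. Lss, which closes the rings to lanosterol, stood at -1.06 ± 0.11 at the epicenter and -0.87 ± 0.11 below. Nsdhl and Hsd17b7, which with Msmo1 remove methyl groups from sterol intermediates, stood at -0.80 ± 0.09 and -0.85 ± 0.11 at the epicenter. The smallest falls of this stretch were in Fdft1, squalene synthase, at -0.45 ± 0.07, and in Tm7sf2, a sterol reductase, at -0.28 ± 0.09 (adjusted p = 0.0143); the call of Tm7sf2 was lost (adjusted p = 0.0571) with library totals in place of TMM. Fdft1 shares 18.3% of its GENCODE M21 exonic bases with Ctsb, a lysosomal protease gene on the opposite strand that phagocytes express. Tm7sf2 shares 12.1% with Vps51 on its own strand. M21 gives 4227 bases for Fdft1 and 4403 for Tm7sf2, against 2860 and 3484 in the authors' table. What such reads add to either value was not tested. Ebp, the sterol isomerase, had 18.2, 18, 15.4 and 19.2 CPM at the epicenter, 19.8, 15.6, 15.9 and 16.4 CPM above, 15.2, 13.3, 16.9 and 13.4 CPM below and 17.5, 16.4, 15.1 and 15.2 CPM in uninjured cord. The groups overlapped, and its log2 fold change was 0.14 ± 0.10 at the epicenter (adjusted p = 0.239) and -0.13 ± 0.10 below (adjusted p = 0.339).

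Above the injury, the called members were Hmgcs1, Idi1, Msmo1 (-0.43 ± 0.10, adjusted p = 0.0210) and Sc5d (-0.36 ± 0.08, adjusted p = 0.0246), all of them sterol enzymes. By the same edgeR test 14 members were lower and 3 (Srebf1, Elovl1 and Fads2) higher at an unadjusted p under 0.05, where 3.9% of all tested genes were lower and 10.7% higher at that threshold; DESeq2 and limma-voom also called 0 higher after adjustment. Every above library lay below every uninjured one for 20 members and above for the same 3, where the shares of all genes were 8.95% below and 13.4% above. Each of the 4 calls is lost when some libraries are left out. The count of lower members was 0 without uninjured 1 or 2. It was 1 without uninjured 3 or above 1 or 4, and 2 without uninjured 4 or above 3. It was 8 without below 2, 11 without below 3, and 8 without above 1 and below 3 together. In a fit of only these 2 groups it was 20. The count of higher members was 2 without below 3. Lower calls over all genes varied too, with 106 in the main fit and 414 without below 3. They numbered 224 without above 1 and below 3 together, and 1162 in the fit of only these 2 groups. For 18 of the 35 members, 13 of them among the 17 sterol enzymes, every epicenter and every below library was under every above library and every above library was under every uninjured one; 1.55% of all tested genes show this order. The 5 others were Srebf2, Insig1, Stard4, Acss2 and Scd2.

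**Figure D2:**
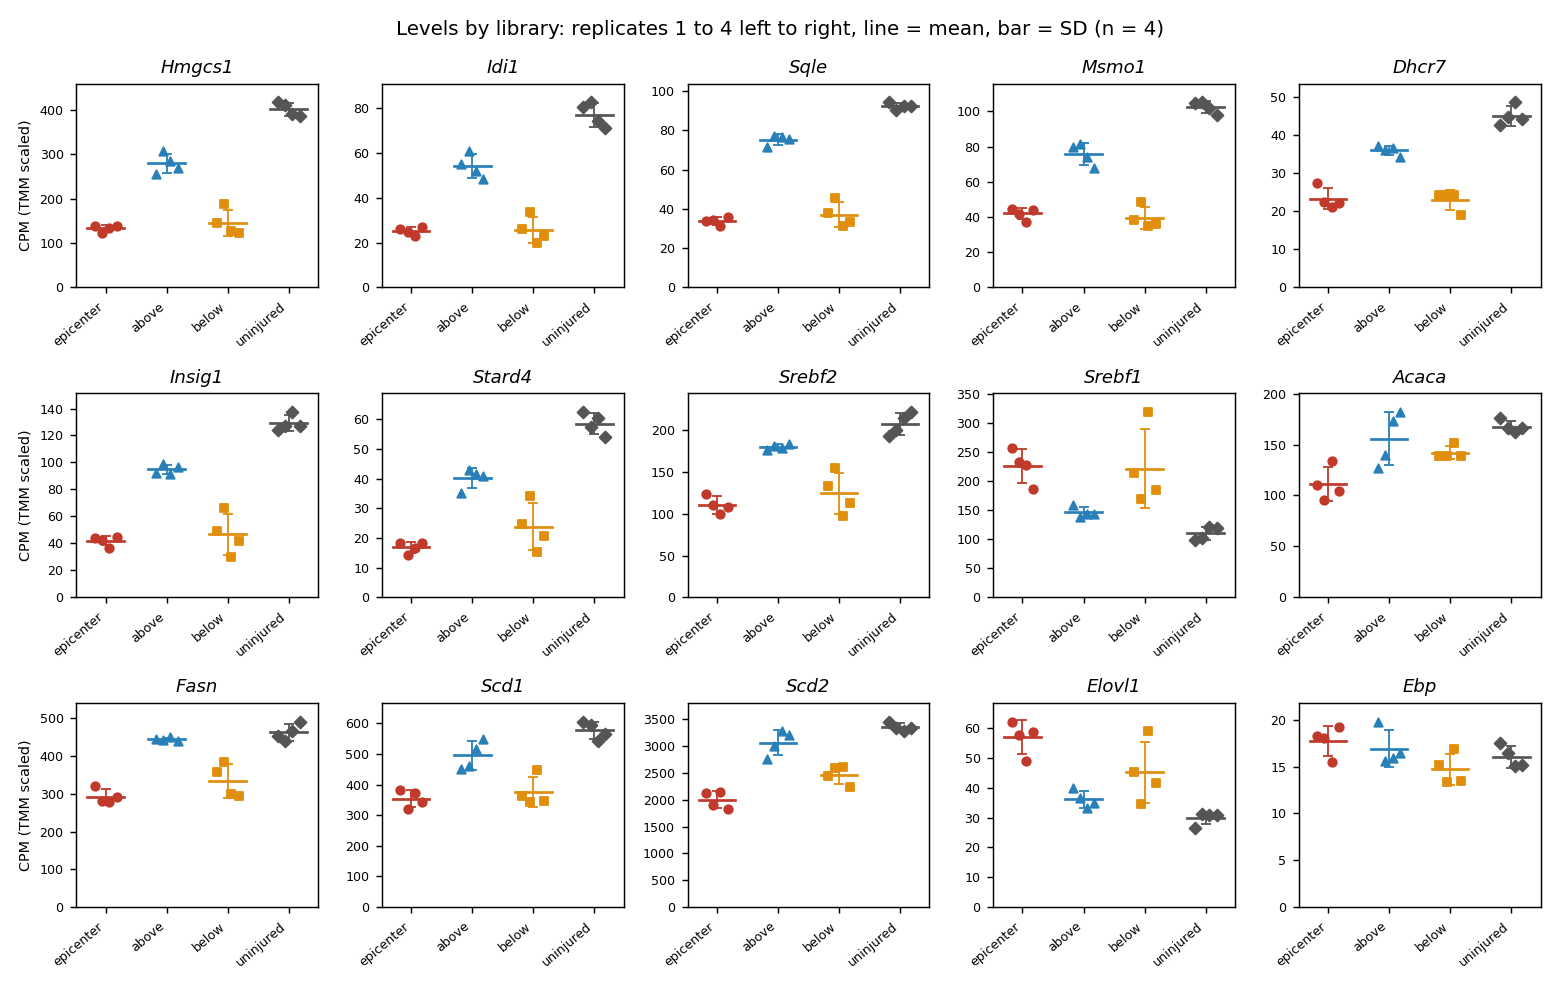
CPM, scaled by TMM, of 15 members in each of the 16 libraries (symbols, replicates 1 to 4 from left to right), with the mean of each group as a line and the SD as a bar (n = 4); every y axis is linear and starts at 0. Sterol enzymes such as Hmgcs1 and Sqle are low at the epicenter and below and intermediate above, Srebf1 and Elovl1 are high at the epicenter, and Ebp overlaps between groups.

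The regulators did not move as one. Of the 6 genes of regulation and transport, 4 fell and 1 rose at the epicenter, and 4 fell and 1 rose below. Srebf2, the sterol-responsive factor of cholesterol genes, had 124, 110, 99.3 and 108 CPM at the epicenter, 177, 181, 179 and 184 CPM above, 133, 155, 98.0 and 113 CPM below, and 193, 200, 215 and 222 CPM in uninjured cord. Its injured libraries were all below the uninjured ones, with log2 fold changes of -0.91 ± 0.11 at the epicenter (adjusted p = 1.03e-05), -0.20 ± 0.11 above (adjusted p = 0.452) and -0.73 ± 0.11 below (adjusted p = 0.000167). Srebf1, whose shorter product acts mainly on fatty acid genes, went the other way. It had 257, 233, 228 and 186 CPM at the epicenter, 160, 139, 144 and 144 CPM above, 214, 169, 320 and 185 CPM below, and 98.2, 102, 122 and 119 CPM in uninjured cord. Every injured library was above every uninjured one, and the highest of all was below 3. Its log2 fold changes were 1.04 ± 0.16 at the epicenter (adjusted p = 7.68e-05), 0.41 ± 0.16 above (adjusted p = 0.233) and 1.01 ± 0.16 below (adjusted p = 0.000236).

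Per length of the gene, Srebf1 was higher than Srebf2 at the epicenter and lower in uninjured cord. In CPM per kilobase of the length given in the table, Srebf1 averaged 40.2 ± 5.22 and Srebf2 22.2 ± 2.07 at the epicenter (SD, n = 4), while in uninjured cord Srebf1 averaged 19.6 ± 2.10 and Srebf2 41.6 ± 2.68. On the longer exonic length of Srebf2 in GENCODE M21, a choice made after seeing the data, Srebf2 averaged 15.4 ± 1.44 at the epicenter and 28.9 ± 1.86 in uninjured cord, with Srebf1 as before, and the order was the same. Taken within each library, the log2 ratio of Srebf1 to Srebf2 counts was 1.05, 1.08, 1.20 and 0.78 at the epicenter, -0.14, -0.38, -0.31 and -0.35 above, 0.68, 0.13, 1.71 and 0.71 below, and -0.97, -0.97, -0.82 and -0.90 in uninjured cord. No injured library overlapped with an uninjured one, and above lay between the others. The differences of the means from uninjured cord were 1.95, 0.62 and 1.72 for epicenter, above and below. In a two-sided exact permutation test each has p = 0.0286, the smallest that 4 against 4 can give, and 0.0571 after Benjamini-Hochberg adjustment over 6 ratio tests, so none passes 0.05 after adjustment. The below libraries were spread widely, with 0.81 ± 0.66 (SD, n = 4).

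Within the below group, the libraries at the ends of the range of Srebf1, Srebf2, Insig1 and Stard4 were also at the ends for phagocyte markers. Below 3, with 320 CPM of Srebf1, had the lowest values of Srebf2 (98.0 CPM), Insig1 (29.8 CPM) and Stard4 (15.3 CPM) in that group and the most phagocyte marker CPM; below 2, with 169 CPM of Srebf1, had the highest values of the same 3 genes (155, 66.1 and 34.1 CPM) and the fewest phagocyte marker CPM. Below 3 was the lowest below library for 15 of the 35 members and the highest for 11, so its end place is not particular to these genes. Scap differed, with its lowest below value in below 4 (79.8 CPM, against 91.5 to 93.2 CPM in the others). The part of phagocytes in these values was not tested. Insig1, an anchor that holds SCAP back and is itself a target of SREBP, had 44.1, 42.5, 36.8 and 44.4 CPM at the epicenter, 92.4, 98.8, 91.4 and 97.0 CPM above, 49.3, 66.1, 29.8 and 42.1 CPM below, and 124, 127, 137 and 127 CPM in uninjured cord. It was low in all epicenter and below libraries, at -1.62 ± 0.17 (adjusted p = 1.61e-06) and -1.46 ± 0.16 (adjusted p = 1.06e-05). Stard4, a carrier of cholesterol between membranes, had 18.2, 14.2, 16.7 and 18.4 CPM at the epicenter, 35.2, 43.0, 41.7 and 40.9 CPM above, 24.7, 34.1, 15.3 and 20.8 CPM below, and 62.5, 57.5, 60.3 and 54.0 CPM in uninjured cord. At the epicenter it had the largest fold change of all members, -1.80 ± 0.18 (adjusted p = 1.30e-06): it fell by 71.2%, with no overlap between epicenter and uninjured libraries.

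Insig2, the second INSIG gene, differed little: its log2 fold change was -0.26 ± 0.09 at the epicenter (adjusted p = 0.0194) and -0.23 ± 0.09 below (adjusted p = 0.0483). Its call was lost without uninjured 2 or epicenter 4 at the epicenter (adjusted p up to 0.0678 over all alternatives) and in 17 of 24 alternatives below (adjusted p up to 0.448). Scap, the escort of SREBP, had a log2 fold change of 0.08 ± 0.07 at the epicenter (adjusted p = 0.344), 0.11 ± 0.07 above (adjusted p = 0.566) and 0.03 ± 0.07 below (adjusted p = 0.761), and injured and uninjured libraries overlapped in each comparison. An opposite-strand gene covers 13.2% of the GENCODE M21 exonic bases of Scap (7443, against 4275 in the authors' table).

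All 4 enzymes of fatty acid synthesis fell at the epicenter (median -0.87) and 3 of 4 fell below (median -0.62). Acly, which makes cytosolic acetyl-CoA from citrate, stood at -1.08 ± 0.13 at the epicenter and -0.76 ± 0.13 below, and Acss2, which makes it from acetate, at -1.09 ± 0.12 and -0.87 ± 0.12. These 2 genes supply both pathways. Acaca, acetyl-CoA carboxylase, had 111, 95.9, 134 and 104 CPM at the epicenter, 127, 140, 173 and 182 CPM above, 139, 139, 151 and 139 CPM below, and 176, 167, 162 and 166 CPM in uninjured cord. The epicenter and below libraries lay under the uninjured ones and the above libraries spread across them. Its log2 fold change was -0.59 ± 0.11 at the epicenter (adjusted p = 0.000428) and -0.24 ± 0.11 below (adjusted p = 0.107). Fasn, fatty acid synthase, had 321, 282, 278 and 291 CPM at the epicenter, 446, 443, 450 and 441 CPM above, 357, 384, 300 and 294 CPM below, and 453, 440, 467 and 491 CPM in uninjured cord. Above and uninjured libraries overlapped, at -0.06 ± 0.09 (adjusted p = 0.846), while the fold change was -0.66 ± 0.09 at the epicenter (adjusted p = 1.92e-05) and -0.47 ± 0.09 below (adjusted p = 0.000836).

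Among the 8 desaturases and elongases, 5 fell and 1 rose at the epicenter, and 6 fell and 1 rose below. Scd2, the main stearoyl-CoA desaturase of the nervous system, had 2127, 1899, 2148 and 1823 CPM at the epicenter, 2755, 2997, 3271 and 3211 CPM above, 2431, 2582, 2609 and 2228 CPM below, and 3448, 3325, 3277 and 3336 CPM in uninjured cord. The epicenter libraries were the lowest without overlap, and its fold change was -0.74 ± 0.10 there (adjusted p = 1.17e-05) and -0.44 ± 0.09 below (adjusted p = 0.00211). Scd1, the isoform known best from liver and fat, had 382, 319, 371 and 344 CPM at the epicenter, 451, 462, 517 and 550 CPM above, 363, 344, 448 and 346 CPM below, and 605, 594, 542 and 566 CPM in uninjured cord. It was lower at the epicenter (-0.70 ± 0.10, adjusted p = 3.21e-05) and below (-0.62 ± 0.10, adjusted p = 0.000235), and above 4 overlapped with the uninjured range. The log2 ratio of Scd1 to Scd2 counts differed from uninjured cord by 0.04 at the epicenter, -0.09 above and -0.18 below, with exact permutation p of 0.400, 0.0857 and 0.0857 and adjusted p of 0.400, 0.103 and 0.103; the groups overlapped. Scd genes are near copies of each other, so reads may have been split among them in the authors' counting.

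Elovl1, an elongase of saturated and monounsaturated very long chains, was the other member that rose. It had 62.1, 57.8, 48.8 and 58.8 CPM at the epicenter, 39.9, 36.5, 33.2 and 35 CPM above, 45.1, 34.7, 59.0 and 41.7 CPM below, and 26.7, 31.2, 30.9 and 30.7 CPM in uninjured cord. Each injured group lay above the uninjured one, with fold changes of 0.93 ± 0.13 at the epicenter (adjusted p = 2.52e-05), 0.28 ± 0.13 above (adjusted p = 0.340) and 0.60 ± 0.13 below (adjusted p = 0.00226). The other elongases were lower or not called. Elovl6, which extends palmitate, stood at -0.97 ± 0.11 at the epicenter and -0.58 ± 0.11 below, and Elovl7 at -0.68 ± 0.09 and -0.52 ± 0.09. Elovl5, an elongase of polyunsaturated chains, stood at -0.15 ± 0.11 at the epicenter (adjusted p = 0.231) and -0.33 ± 0.11 below (adjusted p = 0.0237), a call lost without uninjured 1 or 2 or below 1, 2 or 4 (adjusted p up to 0.168). The front-end desaturases Fads1 and Fads2, neighbours on chromosome 19, parted. Fads1 fell at the epicenter (-0.49 ± 0.07, adjusted p = 3.57e-05), while Fads2 stood at 0.17 ± 0.09 (adjusted p = 0.106), with 117, 108, 110 and 106 CPM at the epicenter and 94.6, 96.0, 103 and 98.7 CPM in uninjured cord, which do not overlap.

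Per kilobase, Scd2 stood far above the rest of the members, with 367 ± 29.9 CPM per kilobase at the epicenter, 561 ± 42.9 above, 452 ± 32.1 below and 614 ± 13.3 in uninjured cord (SD, n = 4). Hmgcs1 and Scd1 came next in uninjured cord at 124 ± 4.49 and 119 ± 5.83, and then Acly at 80.2 ± 1.94. The 3 lowest were Ebp at 6.95 ± 0.50, Tm7sf2 at 6.91 ± 0.46 and Lss at 6.72 ± 0.36. These levels rest on the gene lengths in the authors' table, which differ from the exonic bases of GENCODE M21 for 21 of the 35 members. On the M21 lengths Scd2 was still first (612 ± 13.3 in uninjured cord), but Hmgcs1 averaged 87.4 ± 3.16, under Scd1 at 118 ± 5.76, and Tm7sf2 averaged 5.46 ± 0.37, under Lss and Ebp, so the order of neighbours is set by the lengths used.

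Set directly against the piece above, the epicenter had 28 members lower and 2 higher, where 24.4% of all genes were lower and 28.3% higher, with a members' median of -0.60, against 0.02 over all genes. Stard4 (-1.25 ± 0.18), Insig1 (-1.18 ± 0.16) and Sqle (-1.15 ± 0.09) had the largest changes, and Srebf1 (0.63 ± 0.16) and Elovl1 (0.65 ± 0.13) were the 2 that were higher. The calls of Mvk (without above 4 or epicenter 3), Pmvk (without above 1 or 2 or epicenter 2 or 3), Fdft1 (without above 2) and Insig2 (without above 1 or 2 or epicenter 4) were lost on leaving out a library, with adjusted p up to 0.0648, 0.107, 0.0540 and 0.0626. Above against below, 1 member was lower (Srebf1, -0.60 ± 0.16, adjusted p = 0.0168) and 27 were higher, where 15.2% of all genes were lower and 9.11% higher; the members' median was 0.50, against -0.03 over all genes. Idi1 (1.08 ± 0.13), Sqle (1.02 ± 0.09) and Insig1 (1.02 ± 0.16) had the largest changes. Without below 2 the count of lower members was 2. With library totals in place of TMM, 15.3% of all called genes were higher above than below, in place of 37.4%.

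At the epicenter against below, 4 of the 35 members were lower and 3 higher, where 10.2% of all genes were lower and 11% higher; these shares are near each other, so the counts show nothing particular to the members. Without below 3 they were 12 lower and 7 higher. Calls over all genes also grew in that setting, from 2436 lower and 2626 higher to 5448 and 5609. With all libraries the members' median was -0.08, against 0.02 over all genes. The members higher at the epicenter were the mevalonate enzymes Mvk (0.46 ± 0.13, adjusted p = 0.0206) and Mvd (0.44 ± 0.12, adjusted p = 0.0174) and the sterol enzyme Nsdhl (0.28 ± 0.09, adjusted p = 0.0461). Those lower were Sc5d (-0.29 ± 0.08, adjusted p = 0.0233), Acaca (-0.35 ± 0.11, adjusted p = 0.0402), Scd2 (-0.30 ± 0.09, adjusted p = 0.0361) and Elovl6 (-0.38 ± 0.11, adjusted p = 0.0243). With the labels' replicate number as a block the Scd2 call was lost (adjusted p = 0.0524). These counts rest on single libraries: lower members numbered 2 without uninjured 2 or epicenter 1, 1 without epicenter 2 or below 1, and 0 without epicenter 4 or below 2. Higher members numbered 1 without epicenter 1, 6 without epicenter 3 and 0 without epicenter 4 or below 4.

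In bulk tissue, fewer cells of a type and less RNA per cell cannot be told apart. The summed level of the 17 sterol enzymes is therefore set beside markers of oligodendrocytes. Markers of Schwann cells, which also make myelin, are not in that marker sum. The sterol enzymes summed to 554 to 633 CPM at the epicenter, 998 to 1088 CPM above, 524 to 714 CPM below and 1293 to 1355 CPM in uninjured cord. The medians were 44.8%, 76.9% and 43.1% of the uninjured median at the epicenter, above and below. The 13 oligodendrocyte markers summed to 15552 to 19453 CPM at the epicenter, 22137 to 23173 CPM above, 14298 to 18641 CPM below and 20219 to 20947 CPM in uninjured cord, with medians of 87.5%, 107% and 71.7% of the uninjured median. For every 100 CPM of oligodendrocyte markers there were 3.13 to 3.56 CPM of sterol enzymes at the epicenter, 4.31 to 4.92 above, 2.90 to 4.65 below and 6.21 to 6.53 in uninjured cord. All injured libraries lay under all uninjured ones on this scale. Oligodendrocytes are not the only cells that make cholesterol, and the part of cell numbers in this ratio was not tested. Of the 13 markers, 7 fell and 1 rose at the epicenter, 0 fell and 0 rose above, and 9 fell and 0 rose below; Ermn, a cytoskeletal protein of oligodendrocytes, changed by a log2 fold of -0.98 ± 0.09 at the epicenter and -0.70 ± 0.09 below, and Mobp, a myelin protein, by -0.40 ± 0.10 and -0.60 ± 0.10. All 13 passed the filter on low counts.

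**Figure D3:**
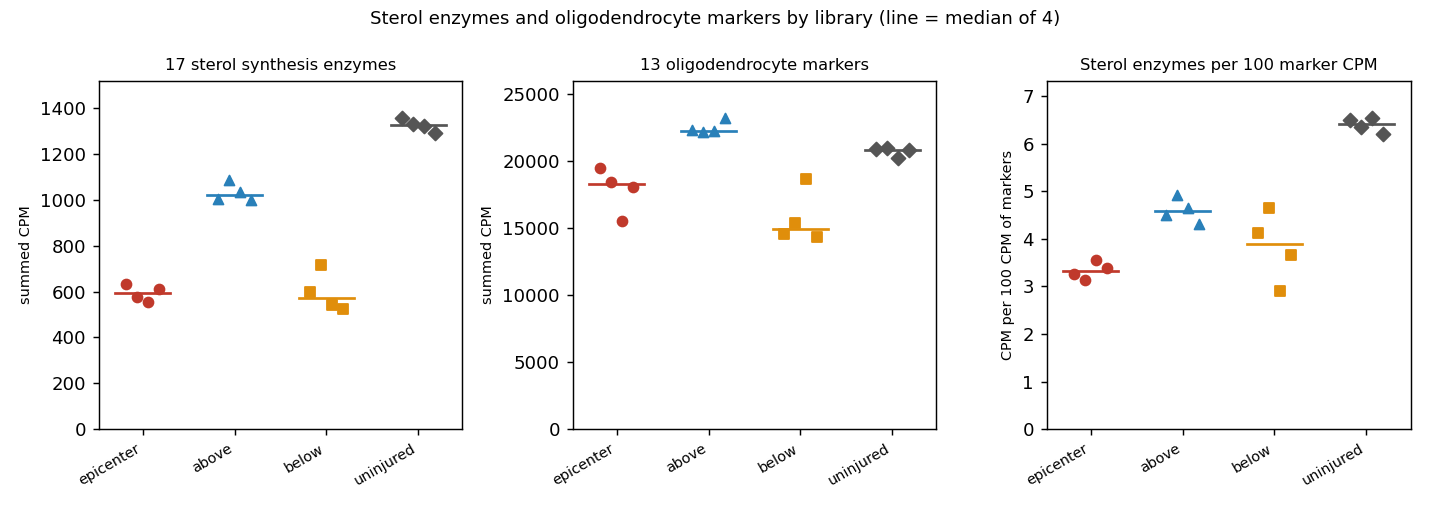
Summed CPM of the 17 sterol enzymes (left), summed CPM of 13 oligodendrocyte markers (middle) and sterol enzyme CPM per 100 CPM of those markers (right) in each library, by group, with the median of 4 as a line; y axes are linear from 0. Sterol enzymes per marker stand at 6.21 to 6.53 in uninjured cord and under 5 in every injured library.

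Other cell types moved with the same samples. Of all genes, 29.3%, 0.446% and 15.7% fell at the epicenter, above and below, and 31.9%, 3.09% and 23.6% rose. Neuron markers summed to medians of 45.3%, 90.8% and 55.1% of the uninjured median at the epicenter, above and below, with 10, 0 and 4 of 10 lower. Phagocyte markers stood at 1875%, 294% and 1052%, with 9, 7 and 9 of 9 higher, and Schwann cell markers at 1400%, 100% and 1612%, with 7, 1 and 7 of 7 higher. Astrocyte markers stood at 152%, 135% and 114%, with 2 lower and 2 higher, 0 lower and 1 higher, and 3 lower and 4 higher of 8. The 1 astrocyte marker that rose above was Gfap, with means of 1390 CPM in uninjured cord, 3589 above and 4162 below. The rise of the astrocyte sum above thus rests largely on that gene. Of 6 oligodendrocyte progenitor markers, 1 fell and 5 rose, 0 fell and 0 rose, and 1 fell and 4 rose; of 6 endothelial markers 1 fell and 4 rose, 0 and 0, and 0 and 4; and of 6 fibroblast markers 6, 1 and 6 rose. Adipocytes make much fat: of 8 adipocyte markers 5 passed the filter (Plin1, Cidec and Lep did not), 3, 1 and 2 of those 5 rose, and their sum was 6.28 to 10.6 CPM at the epicenter, 2.12 to 3.53 above, 2.69 to 15.1 below and 2.11 to 2.73 in uninjured cord. The adipocyte call above was of Cfd, named here for its low level, with means of 0.0936 CPM above and 0.00404 CPM in uninjured cord. The uninjured mean is under the level of 3 counts in any library. The part of these cell types in the members' changes was not tested.

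Genes beside the 35 on the same routes were also compared. Of 14 further genes of sterol synthesis and uptake, 6 fell and 5 rose at the epicenter, 0 changed above, and 6 fell and 5 rose below. Their medians were -0.06 at the epicenter and -0.15 below. Of all genes, 29.3% fell and 31.9% rose at the epicenter, and 15.7% fell and 23.6% rose below. The list mixes genes of synthesis, uptake and electron supply, so its counts and medians do not describe synthesis alone. Acat2, which makes acetoacetyl-CoA at the start of the route, fell (log2 fold change -0.70 ± 0.13 at the epicenter and -0.97 ± 0.13 below). Those that rose include Mylip (2.52 ± 0.27 at the epicenter and 2.27 ± 0.26 below), a ubiquitin ligase, Npc2 (1.81 ± 0.25 and 1.23 ± 0.25), which moves cholesterol out of lysosomes, and the electron donors Cyb5r3 (1.45 ± 0.15 and 0.98 ± 0.15) and Por (0.69 ± 0.08 and 0.50 ± 0.08). Acat2, Cyb5r3 and Por were chosen for mention after their values were seen.

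Of 12 genes of sterol efflux and esterification, 9 rose and 2 fell at the epicenter (Cyp46a1, a brain cholesterol hydroxylase, at -0.70 ± 0.20, and Nceh1, a cholesteryl ester hydrolase, at -0.24 ± 0.08), where 31.9% of all genes rose and 29.3% fell. Above, 1 rose and 0 fell, and below, 7 rose and 0 fell, where 23.6% of all genes rose. The list's medians were 0.85 at the epicenter, 0.10 above and 0.81 below, against 0.0032, 0 and -0.0031 over all genes. Ch25h, which makes an oxysterol that blocks SREBP processing, stood at 4.86 ± 0.29 at the epicenter, 3.18 ± 0.28 above (adjusted p = 2.0e-05) and 4.30 ± 0.29 below. Apoe, the main lipid carrier of the nervous system, stood at 3.49 ± 0.38 at the epicenter, 1.23 ± 0.35 above (adjusted p = 0.0727) and 2.81 ± 0.37 below, and Abca1, the cholesterol exporter, at 2.69 ± 0.41 at the epicenter and 3.08 ± 0.41 below. Summed CPM of this list was 11607 to 14584 at the epicenter, 2881 to 3560 above, 3295 to 17665 below and 1490 to 1626 in uninjured cord. In uninjured cord, above and below, most of this sum was Apoe, with means of 1097, 2574 and 7688 CPM. The highest and lowest below libraries by the sum were below 3 and below 2, the same as for phagocyte markers.

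**Figure D4:**
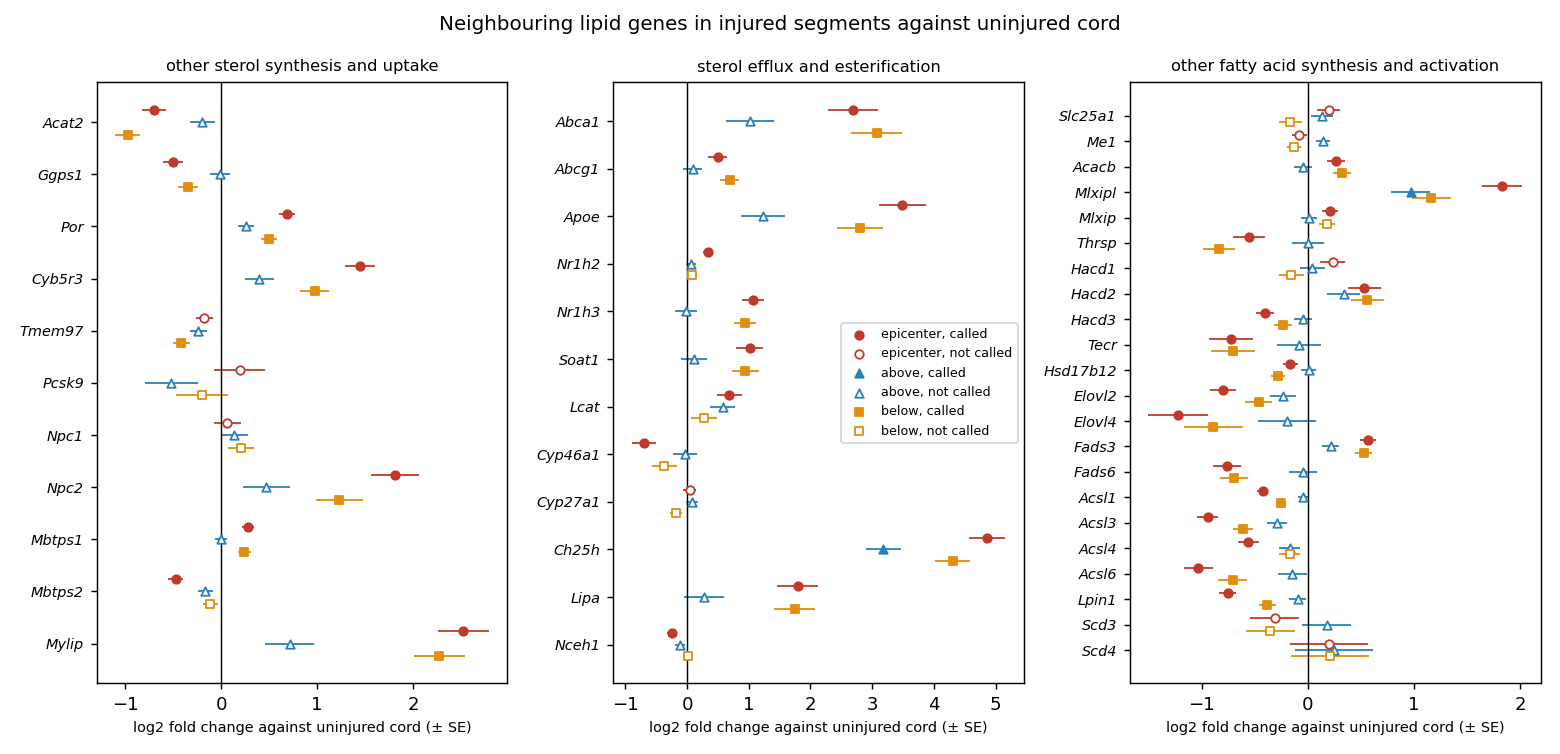
Log2 fold change ± SE against uninjured cord (x axis) of 11 of the 14 further genes of sterol synthesis and uptake, 12 of efflux and esterification and 22 of fatty acid synthesis and activation, for epicenter, above and below; filled symbols passed an adjusted p under 0.05. Acat2 lies left of zero at the epicenter and below, and Mylip, Ch25h, Apoe and Abca1 lie right.

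Of 22 further genes of fatty acid synthesis and activation, 12 fell and 5 rose at the epicenter, 0 fell and 1 rose above, and 11 fell and 4 rose below. Their medians were -0.36, -0.02 and -0.25. For this and the following lists, the shares of all genes that fell were 29.3%, 0.446% and 15.7%. The shares that rose were 31.9%, 3.09% and 23.6%. The small counts of the sphingolipid and oxidation lists were not tested against these shares. Elovl4, an elongase of very long chains, fell (-1.22 ± 0.28 at the epicenter and -0.89 ± 0.28 below), and Mlxipl, the glucose-sensing factor ChREBP, rose (1.83 ± 0.19 at the epicenter, 0.97 ± 0.18 above and 1.16 ± 0.18 below). Of 9 genes of myelin sphingolipid synthesis, 2 fell and 2 rose, 0 and 0, and 3 fell and 1 rose; Ugt8a, which makes galactosylceramide, and Fa2h, the fatty acid hydroxylase of myelin, were lower at the epicenter (-1.07 ± 0.10 and -0.65 ± 0.09) and below (-0.71 ± 0.10 and -0.57 ± 0.09). Of 12 genes of fatty acid oxidation, 1 fell and 6 rose at the epicenter, 0 changed above, and 1 fell and 3 rose below, with Acaa2, a thiolase, at 1.15 ± 0.14 at the epicenter and 0.78 ± 0.14 below, Acadm, a dehydrogenase of medium chains, at 0.62 ± 0.12 below, and Ppargc1a, a coactivator of mitochondrial genes, at -1.17 ± 0.18 and -0.50 ± 0.18.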

How the data were processed

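RNA was sequenced from 16 spinal cord libraries, 4 per group, grouped by GEO's labels. Per the labels' protocols, the library kit was TruSeq RNA Sample Prep v2, which keeps no strand. The values that the authors deposited are raw counts of reads per gene, per the file headers, with 1 column for each library. Tools listed in the submitters' processing notes are Subread 1.4.4, TopHat2 2.0.12 and edgeR, and the build is mm10; which gene annotation was used and how multi-mapping reads were handled is not given in the sources used here. The 37 mitochondrial rows hold 0 counts in every library.

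Rows were kept with filterByExpr by group and scaled by TMM. All 16 libraries entered 1 fit with a term per group (edgeR 4.0.16, R 4.3.3, quasi-likelihood F test), giving 6 comparisons, with Benjamini-Hochberg adjustment over all 23769 rows and a call at an adjusted p under 0.05. SE is the log2 fold change over the square root of F. "Rose" and "fell" mean such a call. The step was tested on simulated counts. Replicates of a group differed beyond counting noise, so none was taken as a duplicate. Count ratios of 2 gene pairs were compared by exact permutation tests (SciPy 1.17.1). Alternatives were DESeq2 1.42.0, limma-voom (limma 3.58.1), other scalings, no filter, the replicate number as a block, fits of the compared groups only, and leaving out libraries. Named values follow a rule: fixed key genes, the 3 largest called changes against uninjured cord, members called against the majority, and the 2 largest called per lipid or oligodendrocyte list, with exceptions named; other lists are given by counts, and some list genes are counted but not reported here singly. Lists are of sterol synthesis and uptake, efflux, fatty acid synthesis, myelin sphingolipids, fatty acid oxidation and 9 cell types; 143 of 144 genes were found. Members and lists were chosen with earlier results of these data known.

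Of the 35 members, 13 share exonic bases with another gene of GENCODE M21, 7 of them over 5%. Promoters are RefSeq windows.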

Additional observations from a re-analysis of the deposited data

Results flagged for a closer look

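In 7 of 140 groups of 4 libraries (35 members, 4 groups) one library lay far from the other 3, where chance gives about 1 in 20 groups. Tm7sf2 had 19.4 CPM in below 2, against 15.8 to 16.3 CPM in the other below libraries. Hsd17b7 had 30.4 CPM in above 1, against 35.1 to 35.4 CPM. Dhcr7 had 19.1 CPM in below 4, against 24.3 to 24.5 CPM. Scap had 98.5 CPM in above 4, against 92.3 to 93.0 CPM, and 79.8 CPM in below 4, against 91.5 to 93.2 CPM. Acaca had 151 CPM in below 3, against 139 CPM in each of the others. Elovl1 had 26.7 CPM in uninjured 1, against 30.7 to 31.2 CPM.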

How the results depend on the processing

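Counts of members lower or higher at the epicenter or below against uninjured cord, at the epicenter against above, and higher above than below stayed within 1.5 times under all 24 alternatives; on leaving out 1 library at a time they were 28 to 30 and 2 to 3 at the epicenter, 27 to 29 and 2 below, 25 to 28 and 2 for epicenter against above, and 25 to 28 for above against below. Of the 31 members called in each of the first 2 comparisons, 29 were called under every alternative, as were 26 of 30 for epicenter against above, 19 of 28 for above against below, 0 of 7 for epicenter against below and 0 of 4 for above against uninjured; no called member changed sign. Members lower above than in uninjured cord (4) were 20 with only the libraries compared, 8 without above 1 and below 3, and 0 to 11 on leaving out 1 library; members higher (0) were 3 with only the libraries compared and 0 to 2 on leaving out 1. At the epicenter against below, lower members (4) were 1 without a filter, 7 with library totals, 0 with only the libraries compared, 12 without above 1 and below 3 and 0 to 12 on leaving out 1, and higher members (3) were 0, 7 and 0 to 7 in the last 3 of these settings. Lower above than below (1) became 2 with library totals, 0 with only the libraries compared and 1 to 2 on leaving out 1. The causes were not tested. All genes called above against uninjured cord (841) were 1485 by DESeq2, 269 by limma-voom, 3684 with only the libraries compared and 408 to 2298 on leaving out 1 library; at the epicenter against below (5062) they were 31 with only the libraries compared and 11268 without above 1 and below 3. Library totals moved the median log2 fold change of all genes below by 0.14 (members' median -0.58) and gave 84.3% higher among called genes, in place of 60.0%; at the epicenter against below that share was 30.7% in place of 51.9%. On leaving out 1 library the log2 ratio of Srebf1 to Srebf2 differed from uninjured cord by 1.89 to 2.03 at the epicenter, 0.57 to 0.65 above and 1.42 to 1.95 below, and no ratio passed 0.05 after adjustment with 1 count added either.

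With a replicate block the members lower and higher were 29 and 2 at the epicenter against uninjured cord; of single calls it ended that of Scd2 at the epicenter against below and added Insig2 above against below. The numbers were not taken as pairs, since no label ties segments to a cord and not every same-numbered pair had deviations correlated over 0.1; at the epicenter and below 3 of 4 pairs did (0.0789 to 0.309), and all 8 libraries correlated best with their own number, a hint from the data and not the design. Depth did not limit any member.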
